A study of Mus musculus with 12 samples.

Results

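The genes described here are the Hox genes of the HoxA, HoxB, HoxC and HoxD clusters together with their neighbours Evx1 and Evx2. They were chosen by name alone: every non-control probe of the array whose gene name in the scanner files was Hox with a cluster letter and a number, or was Evx1 or Evx2. This gave 51 probes for 40 genes (38 Hox genes, Evx1 and Evx2) out of 41174 probes for 22410 named genes. They were brought in as genes that a cleavage-stage embryo would not be transcribing, to show how much of the dim signal on these arrays could be read as expression.

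RNA was measured in 12 single blastomeres, both cells of 6 CF-1 mouse embryos that were split at the 2-cell stage about 36 h post coitus. Experiment 2 held the embryos called pair D, pair G and pair H. Experiment 1 held pair D (a different embryo of the same letter), pair I and pair L. Cells are numbered 2 and 1 within an embryo, and no label says what the number stands for. All embryos came from natural matings and were flushed from oviducts, no group was treated or carried an engineered allele, and every cell's poly(A)+ RNA was amplified before labelling and hybridised to its own Agilent array. Each experiment had its own dye (Cy3 in experiment 2, Cy5 in experiment 1), scan protocol and slides (the labels give Cy3 throughout, but the signal of experiment 1 was found in the Cy5 channel), so experiment, dye, scan and slide cannot be told apart. Within each experiment pair D was alone on its slide and the other 2 embryos shared another, so pair D and its slide cannot be told apart either.

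Hox genes encode homeodomain transcription factors that set position along the body axis. They are switched on in order, from the 3′ to the 5′ end of each cluster, once the embryo gastrulates, and retinoic acid and Cdx proteins are known to help open them. In oocytes and pluripotent cells the clusters are known as classical Polycomb targets with CpG-rich promoters. Evx1 and Evx2 are even-skipped homologues that sit at the 5′ end of the HoxA and HoxD clusters. The proteins of the TALE class (Pbx, Meis, Pknox) bind DNA together with Hox proteins.

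Promoters of 24 of the 40 genes were in the RefSeq promoter table of build GRCm38.p6, and 4 of them are shown because the results turn on these genes: the probes of Hoxa7 and Hoxd3 that were detected in every cell, the probe of Hoxb1 that was detected in none, and the probe of Evx1 that differed between embryos. The promoter of Oosp1, which encodes an oocyte secreted protein and was detected in every cell by both of its probes, is shown beside them. Each line is the 250 bases before the annotated start, 5′ to 3′ on the gene's strand, with every CpG dinucleotide in capitals. The windows are chr6:52218574-52218823 on the minus strand for Hoxa7, chr2:74711743-74711992 on the plus strand for Hoxd3, chr11:96365508-96365757 on the plus strand for Hoxb1, chr6:52313248-52313497 on the plus strand for Evx1 and chr19:11691052-11691301 on the minus strand for Oosp1.
Hoxa7: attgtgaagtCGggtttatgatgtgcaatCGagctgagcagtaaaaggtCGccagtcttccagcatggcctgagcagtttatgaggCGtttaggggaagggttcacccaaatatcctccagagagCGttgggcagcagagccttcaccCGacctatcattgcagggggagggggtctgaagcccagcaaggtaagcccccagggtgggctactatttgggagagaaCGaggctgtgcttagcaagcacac
Hoxd3: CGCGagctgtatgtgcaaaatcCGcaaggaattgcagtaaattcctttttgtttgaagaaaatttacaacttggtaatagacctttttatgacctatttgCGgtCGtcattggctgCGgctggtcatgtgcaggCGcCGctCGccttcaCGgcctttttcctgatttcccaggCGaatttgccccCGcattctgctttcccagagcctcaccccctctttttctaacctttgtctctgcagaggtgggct
Hoxb1: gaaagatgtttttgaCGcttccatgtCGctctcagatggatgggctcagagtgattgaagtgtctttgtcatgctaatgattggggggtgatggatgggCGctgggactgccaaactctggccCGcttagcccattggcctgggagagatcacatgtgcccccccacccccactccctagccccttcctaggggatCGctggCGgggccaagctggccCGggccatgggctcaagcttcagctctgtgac
Evx1: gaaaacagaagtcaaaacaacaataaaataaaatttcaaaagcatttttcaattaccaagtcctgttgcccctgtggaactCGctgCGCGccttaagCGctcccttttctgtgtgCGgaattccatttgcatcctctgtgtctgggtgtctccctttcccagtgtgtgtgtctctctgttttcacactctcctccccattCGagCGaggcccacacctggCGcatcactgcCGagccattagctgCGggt
Oosp1: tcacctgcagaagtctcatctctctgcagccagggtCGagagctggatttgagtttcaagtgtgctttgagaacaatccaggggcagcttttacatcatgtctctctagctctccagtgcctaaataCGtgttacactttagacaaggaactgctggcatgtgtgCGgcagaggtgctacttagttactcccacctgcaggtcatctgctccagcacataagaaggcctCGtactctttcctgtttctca

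Hoxa7 held 7 CpG dinucleotides in this window, Hoxd3 12, Hoxb1 7, Evx1 10 and Oosp1 4. Over the 24 Hox and Evx genes with a promoter the median was 13 (range 3 to 35), against a median of 6 over the 27018 genes of the table, of which 33.9% had 13 or more. The dinucleotide CG reads the same on both strands, and at least 1 was present in 100% of the Hox and Evx windows and in 92.3% of all windows. The ratio of observed CpG to the number expected from the C and G content was over 0.6 in 62.5% of Hox and Evx windows (15 of 24), in 36.4% of all windows and in 0.851% of the windows of 940 olfactory receptor genes. Among all genes with both a promoter and a probe, 74.0% of the 6143 with a ratio over 0.6 were detected in at least 6 cells, against 40.4% of the 5446 with a lower ratio. Among the Hox and Evx genes these shares were 5 of 15 with the higher ratio and 4 of 9 with the lower one. The CpG-rich Hox and Evx promoters thus did not come with the frequent detection that such promoters showed over the array as a whole; the windows hold no measurement from these cells.

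The detection call used throughout is the scanner software's own: a probe was called well above background when its background-subtracted signal passed a limit, which on these arrays was 5 times the software's additive error. The limit lay between 11.5 and 118 intensity units. Of the 153 negative control spots on an array, 0 to 2 were called. All probes together were called at 21.9 to 78.7% per array, and 5857 probes were called on all 12. Transcripts of the labelled cell type were present: probes of maternal oocyte genes such as Oog1, Oosp1 and Npm2 were called at a median of 90.4% per array, and probes of genes switched on at genome activation, such as Zfp352 and Tcstv3, at a median of 85.4%. Markers of oviduct epithelium and of stromal, immune and blood cells were present in experiment 1, and their sums were lower in experiment 2. In all sums given here, each value under the common floor described below counts as that floor, so a low sum need not be signal. The summed scaled signal of 19 oviduct epithelium probes was 1.09 to 2.71 in experiment 2 and 9.55 to 70.5 in experiment 1. That of 42 stromal, immune and blood cell probes was 2.41 to 3.52 in experiment 2 and 19.3 to 231 in experiment 1. The sum of 2.41, found in cell 1 of pair G and cells 2 and 1 of pair H, is that of all 42 probes at the floor. The 21 probes of cumulus and granulosa cell markers summed to 3.04 to 4.93 in experiment 2 and 1.73 to 3.31 in experiment 1. Of these 21 probes 6 (28.6%) were called in at least 6 cells, against 40.6% of all probes. In all 12 cells 2 were called (9.52%, against 14.2% of all probes), those of Amhr2 and Nr5a2. The probes of Fshr, Lhcgr and Tnfaip6 were called in none. The median share of the 21 probes called per array was 26.2%, and it lay below that of all probes on 12 of 12 arrays. Amhr2, the receptor of anti-Müllerian hormone, was higher in experiment 2 (1.75 on the log2 scale, limma adjusted p = 0.0362), and the part of cumulus and granulosa RNA in the Hox and Evx values was not tested.

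Although these genes were brought in as silent controls, many of their probes passed the scanner's call, at a share below that of all probes. Whether these calls reflect expression was not tested. Hox and Evx probes were called in 212 of 612 measurements (34.6%), against 42.6% for all probes. In experiment 2 the calls among the 51 probes numbered 31 and 39 in cells 2 and 1 of pair D, 21 and 6 in cells 2 and 1 of pair G, and 14 and 18 in cells 2 and 1 of pair H. In experiment 1 they numbered 20 and 7 in cells 2 and 1 of pair D, 12 and 17 in cells 2 and 1 of pair I, and 17 and 10 in cells 2 and 1 of pair L. The median share per array was 33.3% for Hox and Evx probes (range 11.8 to 76.5%) and 37.9% for all probes. The share of Hox and Evx probes was the lower one on 11 of the 12 arrays, and on the array of experiment 1 pair D cell 2 it was 39.2% for them and 38.6% for all probes. The order of the medians turned with 2 laxer calls: they were 66.7% for Hox and Evx probes and 65.3% for all probes with the scanner's positive-and-significant flag, and 58.8 and 56.4% with the 99th percentile of negative control spots as the limit. Without both cells of experiment 2 pair D, whose arrays had the most calls of any kind, the median was 30.4% for Hox and Evx probes and 37.0% for all probes, and 142 of 510 measurements were called (27.8%).

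**Figure D1:**
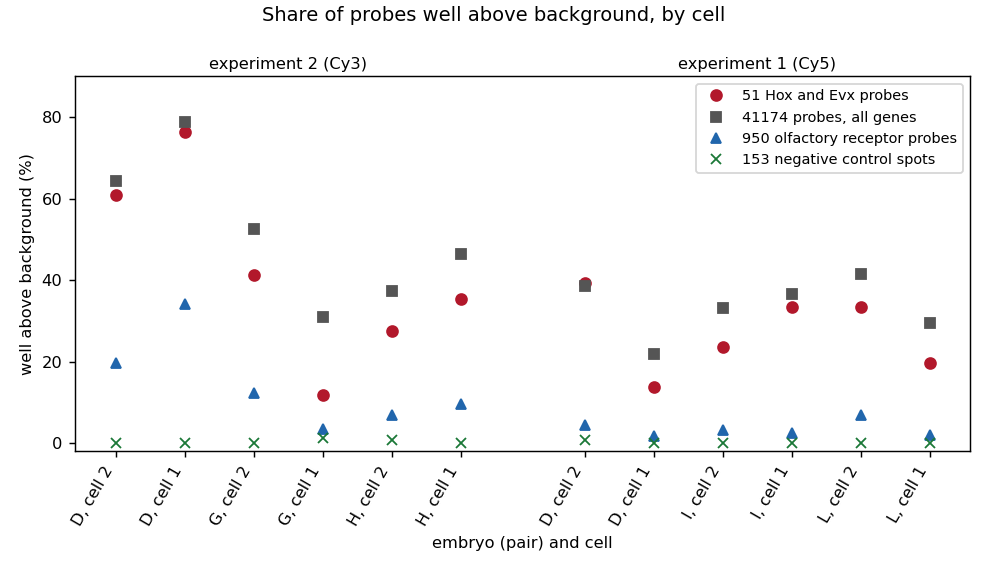
Share of probes well above background (%) in each of the 12 blastomeres, for the 51 Hox and Evx probes (circles), all 41174 probes (squares), 950 olfactory receptor probes (triangles) and 153 negative control spots (crosses). The Hox and Evx share follows that of all probes, from 11.8 to 76.5%, while olfactory receptors lie at 1.79 to 34.1%.

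A family of sensory genes was called less often than the Hox genes were. The 950 probes of olfactory receptor genes, which are made in olfactory neurons, were called at a median of 5.69% per array (range 1.79 to 34.1%), and 60.2% of them were called in no cell. Of the Hox and Evx probes, 7 of 51 (13.7%) were called in no cell, close to the 15.6% of all probes. Probes of 70 other developmental homeobox genes, such as the Dlx and Lhx families, were called at a median of 24.8% and lay below all probes on 12 of 12 arrays. The number of calls therefore varied between gene families that act later in development or outside the embryo, and the Hox and Evx probes were closer to all probes than to olfactory receptors.

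The share of Hox and Evx probes moved with the array. Over the 12 arrays its correlation with the share of all probes was 0.967 (Pearson) and 0.942 (Spearman). It was 0.993 over the 6 arrays of experiment 2, 0.922 over the 6 of experiment 1 and 0.866 without the 2 arrays farthest from the median. These are descriptions: the points share the array's limit and overall signal, and twin cells share an embryo.

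The calls of Hox and Evx probes were mostly weak. Of their 212 calls, 62.3% were over 2 times the array's limit, 27.8% over 4 times and 7.55% over 10 times. The matching shares of the calls of all probes were 73.1, 50.5 and 29.5%. Expressed per array, a median of 17.6% of the Hox and Evx probes lay over 2 times the limit, 4.90% over 4 times and 1.96% over 10 times, against 28.4, 21.1 and 11.9% of all probes. The Hox and Evx median was thus a smaller part of the median of all probes at each higher cutoff.

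**Figure D2:**
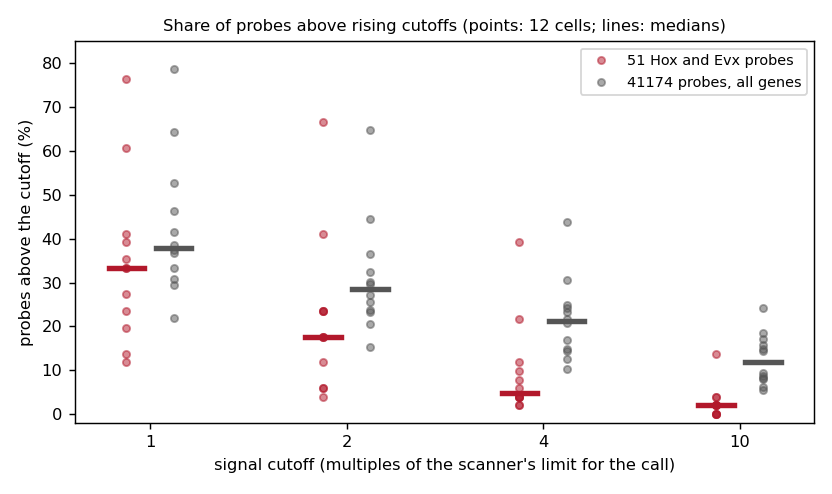
Share of probes (%) above 1, 2, 4 and 10 times the limit of the scanner's call, for the 51 Hox and Evx probes (left of each pair) and all 41174 probes (right), with a point for each of the 12 cells and a line at the median. The Hox and Evx median fell to 1.96% at 10 times the limit, against 11.9% for all probes.

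Signals were also put on a common scale: each was divided by its array's 75th percentile over the 5857 probes called on every array and given as log2. Values under a common floor of -4.12, the highest of the arrays' lowest called signals, were set to it and have no order. On this scale 122 of the 212 Hox and Evx calls were above the floor. In experiment 2 the numbers above it were 24 and 28 in cells 2 and 1 of pair D, 16 and 1 in cells 2 and 1 of pair G, and 1 and 2 in cells 2 and 1 of pair H. In experiment 1 they were 13 and 7 in cells 2 and 1 of pair D, 2 and 6 in cells 2 and 1 of pair I, and 17 and 5 in cells 2 and 1 of pair L. Per array this was a median of 12.7% of the Hox and Evx probes, 22.1% of all probes and 1.42% of olfactory receptor probes. In cell 2 of pair H in experiment 2, 1.96% of the Hox and Evx probes were above the floor beside 19.6% of all probes. In cell 1 of pair D in experiment 2 both shares were near 55% (54.9 and 55.0%). These counts depend on where each array's own limit lay relative to the floor. On this scale the limit ran from -8.28 in cell 1 of experiment 2 pair H to -3.93 in cell 1 of experiment 1 pair D. It was -7.23 in cell 2 of experiment 2 pair H and -5.62 in cell 1 of experiment 2 pair D.

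**Figure D3:**
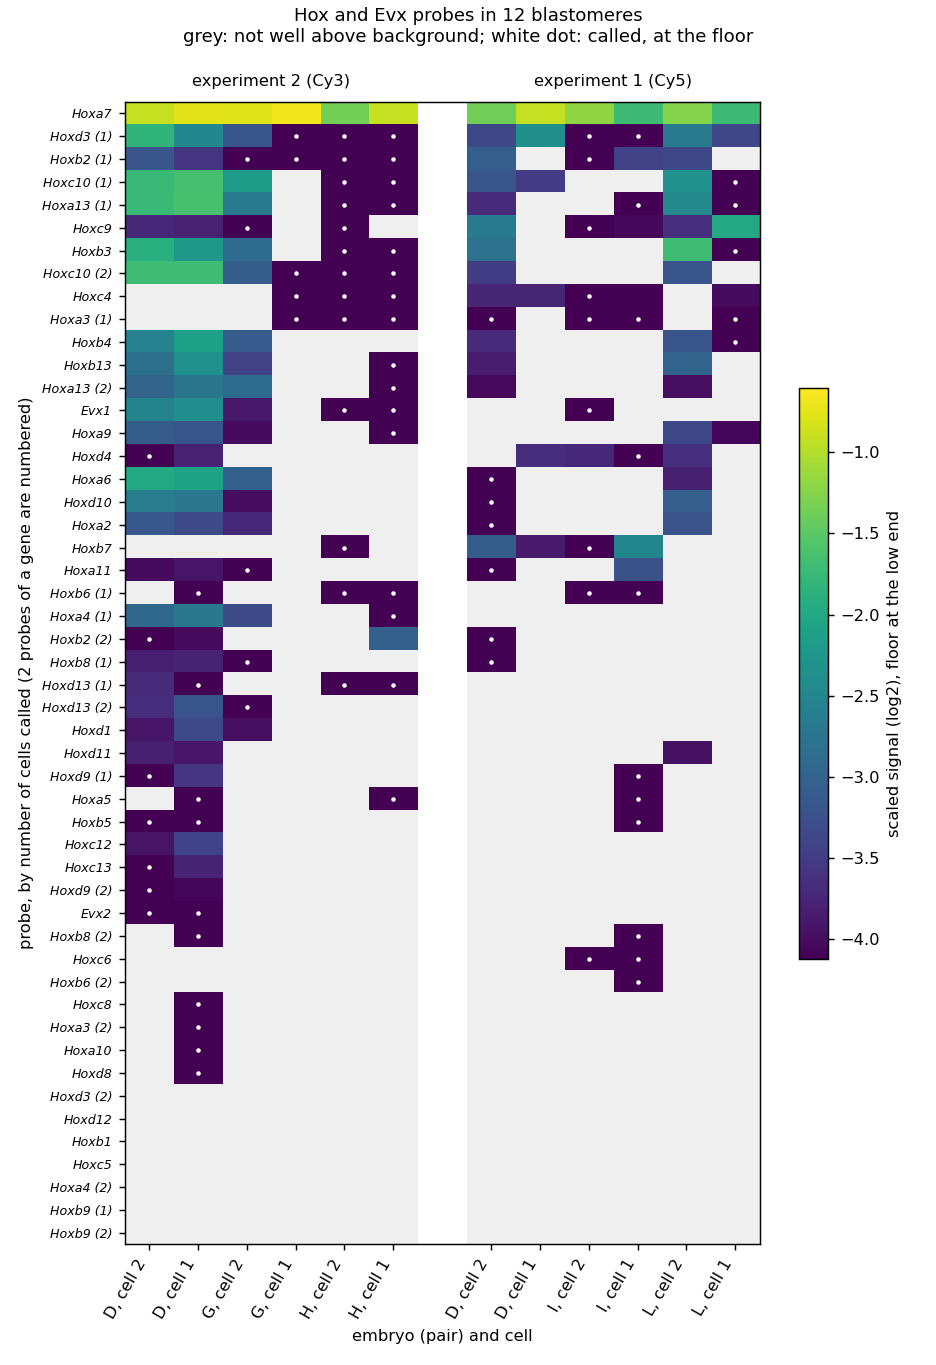
Scaled signal (log2, colour) of 50 Hox and Evx probes (lines down the page, ordered by the number of cells called) in the 12 blastomeres (columns, experiment 2 at left). Hoxa7 is bright in every cell, and most other values above the floor sit in a few columns, among them both cells of experiment 2 pair D with 24 and 28 probes.

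Hoxa7 stood apart from the other members. Its protein takes part in patterning of the trunk, and its single probe was called in all 12 cells, with signals of 6.32 to 140 times the limit. The scaled signal in experiment 2 was -0.91 and -0.76 in cells 2 and 1 of pair D, -0.78 and -0.68 in cells 2 and 1 of pair G, and -1.35 and -0.91 in cells 2 and 1 of pair H. The experiment 1 values were -1.37 and -0.91 for cells 2 and 1 of pair D, -1.19 and -1.70 for those of pair I, and -1.25 and -1.70 for those of pair L. The mean was -0.90 ± 0.24 in experiment 2 and -1.35 ± 0.31 in experiment 1 (SD, n = 6 cells each), and the groups overlapped. It was the only one of the 51 probes above the common floor in every cell.

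Hoxd3, a gene of the 3′ part of its cluster, was called in all 12 cells by one probe and in none by its other probe. The first probe had 2.12 to 7.98 times the limit, and its scaled signal in experiment 2 was -1.81 and -2.49 in cells 2 and 1 of pair D and -3.18 in cell 2 of pair G, with cell 1 of pair G and both cells of pair H at the floor. In experiment 1 it was -3.36 and -2.37 in cells 2 and 1 of pair D and -2.66 and -3.37 in cells 2 and 1 of pair L, with both cells of pair I at the floor. The second probe never passed 0.37 times the limit. The detection of Hoxd3 in every cell thus rests on 1 of 2 probes.

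Several members shared 1 profile over the cells. Hoxc10, a gene of the posterior group, was called in 9 and 8 cells by its 2 probes. The first of these probes gave -1.75 and -1.64 in cells 2 and 1 of pair D in experiment 2, -2.17 in cell 2 of pair G, and in experiment 1 -3.19 and -3.51 in cells 2 and 1 of pair D and -2.34 in cell 2 of pair L, all on the scaled log2 axis. The other 6 cells were at the floor. Hoxa13, which acts in distal limb and hindgut, gave by its more often called probe (9 cells) -1.75 and -1.63 in cells 2 and 1 of experiment 2 pair D, -2.65 in cell 2 of pair G, and -3.69 and -2.46 in cell 2 of experiment 1 pairs D and L, with the other 7 cells at the floor.

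Hoxb3, a hindbrain gene, was called in 8 cells and was above the floor in the same 5 cells as Hoxa13, at -1.92 and -2.25 in cells 2 and 1 of experiment 2 pair D, -2.89 in cell 2 of pair G, and -2.81 and -1.69 in cell 2 of experiment 1 pairs D and L. Hoxb4 (6 cells called) and Hoxb13 (6 cells called) were above the floor in these 5 cells as well, at values between -3.85 and -2.14. Hoxa6, Hoxd10 and Hoxa2, each called in 5 cells, had 4 values above the floor, in both cells of experiment 2 pair D, cell 2 of pair G and cell 2 of experiment 1 pair L. The same count over all probes differed between cells too. In experiment 2, 49.5 and 55.0% of all probes were above the floor in cells 2 and 1 of pair D, 37.9 and 19.1% in cells 2 and 1 of pair G, and 19.6 and 19.9% in cells 2 and 1 of pair H. In experiment 1 it was 30.4 and 21.9% in cells 2 and 1 of pair D, 21.0 and 22.3% in cells 2 and 1 of pair I, and 40.1 and 21.9% in cells 2 and 1 of pair L. The cells in which Hoxb3 was above the floor are thus also those with the highest shares of all probes above it. The share of olfactory receptor probes above the floor was likewise highest there, at 10.8 and 12.9% in cells 2 and 1 of experiment 2 pair D, and lowest in cell 1 of experiment 1 pair I, at 0.421%. Counts above the floor also depend on where each array's own limit lay relative to it. Whether this or the array's overall signal accounts for the shared profile was not tested.

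Other members went against that profile. Hoxc4 was called in 8 cells and Hoxa3 (its more often called probe) in 7, and neither was called in cells 2 and 1 of experiment 2 pair D or in cell 2 of experiment 2 pair G and of experiment 1 pair L. Hoxc4 had 2.62 and 2.43 times the limit in cells 2 and 1 of experiment 2 pair H and 2.37 and 4.77 times in cells 2 and 1 of experiment 1 pair I. Hoxa3 was at the common floor in every cell, so its 7 calls carry no measured order. Hoxb2, called in 10 cells by its first probe, ranged from -3.20 in cell 2 of experiment 2 pair D and -3.06 in cell 2 of experiment 1 pair D down to the floor.

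Some members were much higher in 1 cell than in its twin. The second probe of Hoxb2 reached 37.9 times the limit in cell 1 of experiment 2 pair H (-3.04 scaled), while the twin, cell 2, was not called, and the first probe gave 7.39 times the limit there. Hoxb7, called in 5 cells, had 15.3 times the limit in cell 1 of experiment 1 pair I (-2.50 scaled) and 2.62 times in its twin, and it was also above the floor in cells 2 and 1 of experiment 1 pair D (-3.09 and -3.87). Hoxa11 had 8.18 times the limit in the same cell and was not called in its twin, cell 2. Hoxc9, called in 9 cells, was highest in cell 1 of experiment 1 pair L, at -2.0 with 8.31 times the limit, where its twin had -3.63, and it had -2.69 in cell 2 of experiment 1 pair D. That cell of pair I also had the highest summed signal of oviduct markers of all 12 cells (70.5), and that cell of pair L the highest of stromal, immune and blood cell markers (231); the part of these cells' RNA in the 3 values was not tested.

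At the other end, Hoxb1, a hindbrain gene at the 3′ end of its cluster, was spotted 10 times on each array and was called in 0 of 120 spot measurements. Its mean intensity was 7.15 ± 2.11 and 17.9 ± 4.21 in cells 2 and 1 of experiment 2 pair D (SD over 10 spots of an array), where the limits were 28.5 and 46.4, and the highest single spot in all of experiment 1 was 6.73 intensity units. Both probes of Hoxb9 and the single probes of Hoxc5 and Hoxd12 were called in no cell either, so 4 of 40 genes (10.0%) were not detected by any probe in any cell, against 10.1% of all named genes. At least 6 cells were reached by 14 of 40 genes (35.0%), against 53.3% of all named genes, and 12 cells by 2 (5%), against 21.5%. Evx2 was called in 2 cells, both of experiment 2 pair D, at 1.05 and 2.50 times the limit in cells 2 and 1, and was at the common floor everywhere.

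Detection did not follow the order of the clusters. Calls made up 40.6% of the measurements of the 15 HoxA probes, 32.1% for the 14 HoxB probes, 38.0% for the 9 HoxC probes and 28.2% for the 13 HoxD probes, with the Evx probes counted in HoxA and HoxD. By paralog group they made up 40.2% for groups 1 to 3 at the 3′ end, 31.5% for groups 4 to 8 and 34.6% for groups 9 to 13. Neighbours in a cluster were often at opposite ends: Hoxb1 was called in no cell and Hoxb2 in 10, Hoxc5 in none and Hoxc4 in 8, Hoxa10 in 1 and Hoxa9 in 6. The share over all probes of the array was 42.6%, and differences among the clusters were not tested.

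**Figure D4:**
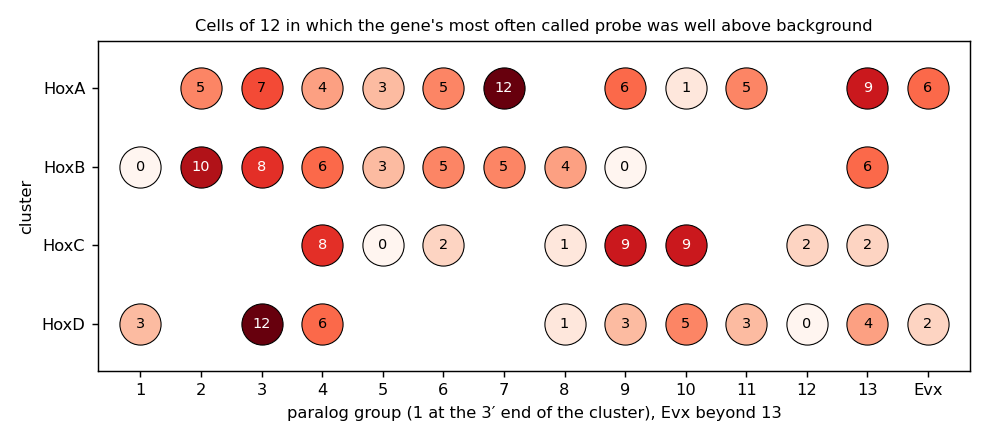
Number of the 12 cells in which the most often called probe of each gene shown was well above background, by cluster (lines) and paralog group (axis, 1 at the 3′ end, Evx beyond 13). Hoxa7 and Hoxd3 reached 12 cells, while Hoxb1, Hoxb9, Hoxc5 and Hoxd12 were called in none.

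Different probes of a gene often disagreed. For the 11 genes with 2 probes there were 132 comparisons within an array, of which both probes were called in 23, only one in 48 and neither in 61. Both were therefore called in 32.4% of the cases in which either was, against 45.2% over 5751 other genes with 2 probes. The share of comparisons with the same call was 63.6% for Hox genes and 63.2% for the others. Hoxc10 had the best match among the often called genes, with 7 cells called by both probes, 2 by the first alone and 1 by the second alone. Hoxa13 had 6 cells called by both and 3 by one. Hoxa3 had no cell called by both, although either was called in 8.

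In the median, twin cells shared more Hox and Evx calls than cells of different embryos did, and the same held for all probes. Both cells had the call in a median of 47.4% of the Hox and Evx probes called in either twin (6 pairs, range 17.4 to 79.5%), against 31.5% for 24 pairs of cells from different embryos of the same experiment (range 9.76 to 67.7%). For all probes the medians were 60.2 and 56.8%, and for olfactory receptors 25.8 and 17.4%. The ranges overlap widely, and these pairs share cells, so no test was made. The twins of experiment 2 pair G were the least alike: 4 probes were called in both, 17 in cell 2 alone and 2 in cell 1 alone.

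Differences between embryos, experiments and cell numbers were tested with limma over the 16712 probes called in at least 6 cells, with Benjamini-Hochberg adjustment over all of them. Of the 51 Hox and Evx probes 16, for 14 genes, entered these tests. Among the 16, the more often called probe of Hoxa3 was at the common floor in every cell, so on this scale it could pass none of them. The filter admits probes called in 6 cells of 1 experiment, so the probes that passed it stand for the better detected members only. The replicates of an embryo are its 2 cells. The test between embryos sets differences between embryo means against the spread between twins, pooled over the embryos.

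Evx1 was the only Hox or Evx probe that passed the test between embryos of the same experiment, and its high embryo was pair D of experiment 2, which was alone on its slide. It had -2.54 and -2.40 on the scaled log2 axis in cells 2 and 1 of experiment 2 pair D and -3.89 in cell 2 of pair G, and it was at the floor in the other 9 cells. It was called in 6 cells: both cells of experiment 2 pair D (4.93 and 9.30 times the limit in cells 2 and 1), cell 2 of pair G (1.80 times), both cells of pair H (1.46 and 1.66 times in cells 2 and 1) and cell 2 of experiment 1 pair I (1.11 times). The embryo mean was -2.47 ± 0.10 in pair D, -4.01 ± 0.16 in pair G and at the floor in pair H (SD, n = 2 cells each; limma moderated F = 40.6, adjusted p = 0.0289). With the calls taken over all 16712 probes, 1.41% differed between embryos, and 1 of 16 Hox and Evx probes did. Among the embryos that shared a slide (pairs G and H, and pairs I and L) Evx1 did not pass (limma moderated F = 0.31, adjusted p = 0.895). None of the 16 probes did, and none had an unadjusted p under 0.05 there, while 47 of all 16712 probes passed. In 4 of the 6 embryos both cells were at the floor for Evx1, which leaves their twin spread at 0. The call was lost when the scale was set over all probes (adjusted p = 0.0582), in the deposited value table (0.103) and, in limma fits without 1 cell, without cell 1 of experiment 1 pair D (0.0539), cell 2 of experiment 2 pair H (0.109) or cell 1 of that pair (0.0967). Within experiment 2 alone it held (limma, adjusted p = 0.0443, where Hoxa9 had the same adjusted p), and in experiment 1 all 6 values were at the floor.

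Without adjustment 7 of the 16 probes had p under 0.05 between embryos (limma), as did 4987 of all 16712. Hoxc10 by its less often called probe came next to Evx1 (F = 9.78, adjusted p = 0.0761), then Hoxd3 (F = 7.49, adjusted p = 0.0946) and Hoxa9 (F = 6.73, adjusted p = 0.103). Hoxc4, Hoxd4, Hoxb2, Hoxc9, Hoxb3 and Hoxa7 had adjusted p between 0.271 and 0.988. The number of calls moved with how the floor was set, and with other settings too. With a floor for each array at its own lowest called signal 11 of the 16 passed, among 4354 probes in all, Evx1 included. With normexp background correction 12 of the 16 passed, among 6697 probes in all, and with the deposited values 0 of the 16 did.

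Between the experiments no Hox or Evx probe differed, while 8.12% of all tested probes did (3.96% higher and 4.16% lower in experiment 2, limma with embryo as a random block). At an unadjusted p under 0.05 there were 0 of 16 Hox and Evx probes and 3207 of all probes. The median difference, experiment 2 minus experiment 1, was 0.33 over the 16 Hox and Evx probes and 0.19 over all tested probes on the log2 scale. Hoxa7 was 0.46 ± 0.21 higher in experiment 2 (SE, adjusted p = 0.276). Evx1 had 0.59 ± 0.33 (SE, adjusted p = 0.377) and Hoxc9 -0.57 ± 0.45 (SE, adjusted p = 0.532). The medians moved with the normalization and the background correction: the median over all tested probes was 0.00 after quantile normalization and -0.76 with normexp background correction, and the Hox and Evx median was 0.03 and -0.82 there. Hoxa7 kept its direction, at 0.48 and 0.30. Of the markers of oviduct and of stromal, immune and blood cells, 6 of 13 and 8 of 19 tested probes were lower in experiment 2 and none higher. Among these, Ovgp1, Ltf, Acta2 and Col1a1 were called in 7 or 8 cells and were at the floor in every cell of experiment 2. For such probes the filter favours that direction. The part of these markers' cells in the Hox and Evx values was not tested.

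Between cell 2 and cell 1 of the embryos, no probe of any gene passed the test (0 of 16712, or 0%, with 737 at an unadjusted p under 0.05 and 1 of the 16 Hox and Evx probes among them). That one was Hoxb3, with a mean difference of 0.88 ± 0.35 on the log2 scale (SE, limma adjusted p = 0.675). The difference was 0.52 within experiment 2 and 1.25 within experiment 1. The cell contrast did not differ between experiments for any of the 16 probes or for any probe tested (limma interaction, 0 of 16712 with 880 at an unadjusted p under 0.05). Over the 16 probes the median difference was 0.21, against 0.10 over all tested probes. The Hox and Evx median was -0.0038 with quantile normalization, -0.0074 with the scale set over all probes, 0.38 with normexp, 0.71 with a floor per array and 0.90 in the deposited values, where all tested probes had 0, -0.15, 0.17, 0.27 and 0.32. It was 0.12 without either cell of experiment 2 pair G and 0.14 without either cell of experiment 1 pair L.

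The genes that act with or on Hox genes were counted in the same way. For comparison, the median share called per array was 33.3% for Hox and Evx probes and 37.9% for all probes. Of the TALE partners, called at a median of 47.5% of 20 probes, Meis2 was called in every cell, and one of its probes had 2.45 to 3.18 (median 2.91) in experiment 2 and 2.90 to 3.78 (median 3.58) in experiment 1 on the scaled log2 axis. Meis3, Pbx2 and Pbx4 were called in 9 or 10 cells and were at the floor in some cells of each experiment. Of the 10 tested probes of this list 1 passed, a probe of Pknox2 that entered the test through experiment 1 alone: it was at the floor and called in no cell of experiment 2, against 6 calls and -3.30 to -1.52 (median -2.80) in experiment 1. The filter fixes that direction, and another Pknox2 probe was called in 4 cells of each experiment and was at the floor in all. The 6 probes of Cdx and ParaHox genes, of which Cdx2 later directs trophectoderm, were called at a median of 33.3%, and none of the 2 tested (Gsx1 and Pdx1) passed. Gsx1 was called in 10 cells with 1 probe, Pdx1 in 7, Cdx2 in 5 and Cdx1 in 3.

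Regulators of the Polycomb and trithorax groups, which hold Hox genes off or on in later embryos, were called at a median of 63.0% of 50 probes, above all probes on 12 of 12 arrays. Phc2, Suz12, Rnf2 and Cbx2 were each called in 12 cells. Suz12, a core subunit of the complex that methylates histone H3 at lysine 27, had 1.33 to 2.42 (median 1.87) in experiment 2 and 0.13 to 1.86 (median 1.15) in experiment 1. Of 32 tested probes, 3 were higher in experiment 2 (Mtf2, Rnf2 by its less often called probe and Bmi1), 2 were lower (Wbp7 among them), and 1 differed between embryos (Mtf2, limma adjusted p = 0.0289). Of the retinoic acid pathway, 37.5% of 20 probes were called in the median, and none of 6 tested passed any of the 3 tests. Aldh1a2, which makes retinoic acid, was called in 12 cells at -1.61 to 0.49 (median -0.88) in experiment 2 and 0.10 to 1.83 (median 0.96) in experiment 1. Of the other developmental homeobox genes, Lhx8, an oocyte factor, had 0.17 to 1.12 (median 0.87) in experiment 2 and 0.74 to 1.70 (median 1.54) in experiment 1, Isl2, Lhx2 and Gbx2 were also called in 12 cells, and none of 24 tested probes passed.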

How the data were processed

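The deposited scanner files hold intensity, which the authors read out in version 9.1.3.1 of the Agilent Feature Extraction software (per the file headers). The deposited value table also holds intensity, as processed signal divided by a constant per array with low values raised. Depth does not apply to arrays: their number, 12, limits the precision. The call well above background was taken from the files. The header gives a multiplier of 13, whereas the values show a limit of 5 times the additive error. Non-control spots of a probe were averaged without outlier spots. Accessions of 46 of the 51 probes matched the gene table of GRCm38.p6, all to the same symbol, and the other 5 keep the files' name.

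Processed signals were divided by the 75th percentile over probes called on all arrays, floored and taken as log2. Tests used limma 3.58.1 in R 4.3.3 at an adjusted p under 0.05. They were a moderated F test over embryo contrasts within experiments, experiment with embryo as random block, and cell number with embryo as fixed block. All were tried on simulated data with independent normal noise. That simulation had no floor and no correlation between twins, so it does not cover these features of the data. Fits left out no Hox or Evx value. Alternatives changed normalization, background correction, floor, filter, the deposited values, the cell number as block, and cells left out. Members and lists were chosen with earlier results of these data known. Named probes were those entering the tests, then those most often called up to 20 genes, Evx1 and Evx2, the least called member of each cluster and up to 4 genes of each list. Whether cell numbers pair cells of different embryos is not known: 15 correlations of twin differences ran from -0.08 to 0.26, and 3 were over 0.1. Promoter windows were read from the RefSeq table, 1 per gene (the one with most CpG). The values of 1 Hox probe, which is counted in all totals except the search for single outlying cells, and of 1 gene of the other lists are not reported here.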

Additional observations from a re-analysis of the deposited data

Results flagged for a closer look

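In each experiment, the 6 cells' values of 50 Hox and Evx probes were examined for a single cell far from the others (a gap over 0.625 of the whole range, Dixon's limit for 6 values). Of 49 sets with any spread 17 held such a cell, where chance flags about 1 in 20; in many of them the other cells were at the floor of -4.12, so that any value above it stands alone. All values are scaled log2 signals. In experiment 2, cell 1 of pair D stood alone for Hoxd1 (-3.35), Hoxc12 (-3.42), Hoxd9 by both probes (-3.57 and -4.07), Hoxc13 (-3.79) and Hoxd4 (-3.81), and cell 2 of that pair for Hoxd13 (-3.69). Cell 1 of pair H stood alone for Hoxb2 by its second probe (-3.04), and cell 2 of pair H was the low one for Hoxa7 (-1.35). In experiment 1, cell 2 of pair L stood alone for Hoxa13 (-2.46), Hoxb13 (-2.99), Hoxd10 (-3.05), Hoxa2 (-3.22), Hoxa9 (-3.36), Hoxa6 (-3.82) and Hoxd11 (-3.97). Cell 1 of pair I stood alone for Hoxa11 (-3.24). In the Cy3 channel of experiment 1, which held no sample, 0 of 60 Hox and Evx spots were called on each of the 6 arrays. Calls were rare there for any probe: 68 to 160 of all non-control spots, which cover 41174 probes, were called per array.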

How the results depend on the processing

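The median share of Hox and Evx probes called stayed at 33.3% when any 1 cell was left out. That was fixed beforehand, since the 2 middle cells (cell 1 of pair I and cell 2 of pair L in experiment 1) both had 33.3%. The median share was 37.5% counted by genes and 30.4% without experiment 2 pair D (chosen after seeing the data). It moved to 66.7% with the laxer positive-and-significant flag and to 58.8% with the 99th percentile of negative control spots, where all probes had 65.3 and 56.4%; under these calls the Hox and Evx median was above that of all probes. Of the 16 probes tested between embryos, 1 passed as reported, 2 with quantile normalization, 12 with normexp, 11 with a floor per array, 3 of 51 without a filter, 2 within experiment 2, and 0 among embryos that shared a slide (chosen after seeing the data), with probes called on all 12 arrays (2 tested), with the deposited values and within experiment 1. Leaving out 1 cell gave 0 to 5. A replicate block for the number of the cell gave 0 (Evx1 limma adjusted p = 0.0759). No label says what that number stands for. Over all probes the same settings gave 0 to 6697 calls in place of 235, the lowest without a cell of experiment 2 pair H, with the block and within experiment 1. Between experiments all probes gave 173 to 1740 calls in place of 1357, and 1194 with the block. No Hox or Evx probe passed between experiments or between cell numbers in any of the 20 and 21 alternatives run. Evx1 kept its call in 14 of 22. Of the 212 calls, 90 were at the common floor. Not all of these were weak beside their own array's limit. In cells 2 and 1 of experiment 2 pair H, the often called probe of Hoxd3 was at the floor with 7.98 and 7.03 times the limit.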
